A study of Mus musculus with 12 samples.

Results

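The genes described here are 10 interferon-gamma-induced immunity GTPase genes of the mouse, chosen by name from 2 families: the immunity-related GTPases (IRGs) Irgm1, Irgm2, Igtp, Iigp1 and Ifi47, and the guanylate-binding proteins (GBPs) Gbp2, Gbp3, Gbp4, Gbp7 and Gbp9. The tables list 48709 genes, of which 17833 were tested, and all 10 members were among the tested genes. Interferon-gamma binds a receptor made of IFNGR1 and IFNGR2, whose JAK kinases start the signal. The transcription factor IRF1, which the signal induces, helps to switch on IRG and GBP genes. The GTPases assemble on the membranes of vacuoles that hold intracellular microbes and help to break them open, while the IRGM-type members (Irgm1, Irgm2 and Igtp, also called Irgm3) keep the effector IRGs inactive on the cell's own membranes. In mice that lack Irgm1, interferon-gamma is toxic to activated CD4 T cells, which is part of what is known of these genes in T lymphocytes.

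RNA was measured in 12 libraries, 3 in each of 4 groups: mice given anti-CTLA-4, mice given anti-PD-1 DANA, mice given both antibodies (the combination below), and mice given an isotype control antibody. CTLA-4 and PD-1 are inhibitory receptors of T cells, and the DANA change in the Fc part keeps an antibody from engaging Fc receptors. All 4 groups were wild-type C57BL/6 mice aged 91 days after birth that carried TRAMP-C2, a transplantable tumour line of mouse prostate origin, and received antibody on days 3, 6 and 9 per the sample labels, or on days 3, 6 and 8 per the series text. Cells sorted as live, CD45+, CD3+ and CD8+, positive for Spas-1, a stain for T cells specific for a TRAMP tumour antigen, and negative for Spas-2, were taken from draining lymph nodes on day 28. The cells of 5 mice per group were pooled and then split into 3 libraries, so the libraries of a group are splits of 1 pool, each p-value is a measure of spread among splits alone, and treatment and pool cannot be told apart. In bulk RNA, fewer cells of a type and less RNA per cell cannot be told apart either.

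The promoters of members are shown first, since the gamma-activated site (GAS) and the interferon-stimulated response element (ISRE), which IRF1 binds, are the elements through which interferons act on these genes. A window from 250 bases before to 50 bases after each RefSeq transcription start was searched on both strands for the ISRE core, written GAAA, then any 2 bases (NN), then GAAA, and for the GAS letters, TTC, any 3 bases (NNN) and GAA. Windows were found for 8 starts of 7 members (Irgm1, Irgm2, Igtp, Ifi47, Gbp2, Gbp7 and, with 2 starts, Gbp3); Gbp4 and Gbp9 had no entry and Iigp1 was not read. The 150 bases before the start are printed 5′ to 3′ on the gene's strand for the 4 members with the lowest p-values (Irgm1, Igtp, Ifi47, Gbp7) and for Irgm2 and Gbp2 as neighbours of the same clusters (RefSeq, GRCm38.p6; capitals mark a match to either motif):
Irgm1 (chr11:48871421-48871570, minus strand): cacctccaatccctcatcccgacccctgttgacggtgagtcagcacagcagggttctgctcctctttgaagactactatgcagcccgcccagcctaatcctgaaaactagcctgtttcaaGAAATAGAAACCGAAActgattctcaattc
Igtp (chr11:58199406-58199555, plus strand): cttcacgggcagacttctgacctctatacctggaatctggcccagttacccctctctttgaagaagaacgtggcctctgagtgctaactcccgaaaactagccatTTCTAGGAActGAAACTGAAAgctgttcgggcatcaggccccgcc
Irgm2 (chr11:58214827-58214976, plus strand): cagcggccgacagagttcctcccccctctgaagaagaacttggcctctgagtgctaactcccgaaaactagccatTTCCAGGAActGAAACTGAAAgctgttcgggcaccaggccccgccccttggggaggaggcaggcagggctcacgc
Ifi47 (chr11:49076437-49076586, plus strand): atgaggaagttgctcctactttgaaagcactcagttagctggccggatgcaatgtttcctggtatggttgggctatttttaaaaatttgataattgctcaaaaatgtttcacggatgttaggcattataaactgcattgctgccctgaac
Gbp2 (chr3:142620513-142620662, plus strand): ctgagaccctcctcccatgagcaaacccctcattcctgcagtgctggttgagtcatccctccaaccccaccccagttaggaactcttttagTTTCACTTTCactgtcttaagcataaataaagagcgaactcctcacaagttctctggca
Gbp7 (chr3:142530186-142530335, plus strand): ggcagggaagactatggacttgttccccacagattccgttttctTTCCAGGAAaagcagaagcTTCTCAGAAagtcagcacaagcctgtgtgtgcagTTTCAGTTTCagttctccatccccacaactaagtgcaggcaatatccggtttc
The ISRE letters were in at least 1 window of 6 of the 7 members, against 3.99% of all 27025 mouse genes with a window, and in 6 of the members' 8 windows, against 3.44% of all 32851 windows. GAS letters were in 3 of the 7 members and 3 of their 8 windows (Irgm2, Igtp and Gbp7), against 9.55% of all genes and 8.30% of all windows, and the same 3 windows held both motifs, against 0.454% of all windows. In Irgm1 there were 2 overlapping ISRE matches, 30 to 21 and 24 to 15 bases before the start, and no GAS match. Gbp3 likewise had 2 overlapping ISRE matches in 1 of its windows and none in the other. Igtp and Irgm2 carried a GAS match directly upstream of an ISRE match in nearly the same surrounding letters, Gbp7 had 2 GAS matches further upstream of its ISRE match, and the Ifi47 window held neither motif. Of 10 windows of other genes of these families, 7 held the ISRE letters and 5 the GAS letters. A match describes the letters only, and the absence of one says only that the letters are not in that window.

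**Figure D1:**
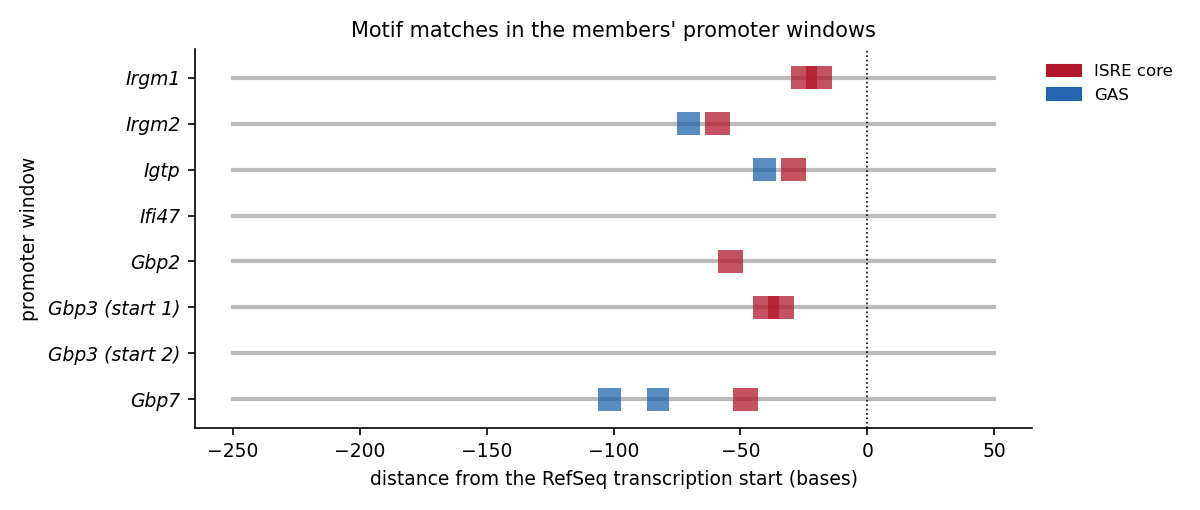
Position of ISRE core (red) and GAS (blue) matches in the promoter windows of 7 members, in bases from the RefSeq transcription start (dotted line), with the 2 windows of Gbp3 drawn separately. All matches lie within the 106 bases before the start, and Ifi47 and the second Gbp3 window have none.

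The members lie in clusters, with coordinates on GRCm38 as the tables give them. Igtp (chr11:58199556-58207591, plus strand) and Irgm2 (chr11:58199618-58222782, plus strand) overlap by 7974 bases on the same strand. The promoter stretch printed above for Irgm2 lies inside this Irgm2 span and past the end of Igtp. The overlap thus rests on an Irgm2 start further upstream than the RefSeq start, and its share of exon was not measured. The stretch printed for Irgm1 also lies inside the span given for that gene. Irgm1 (chr11:48861968-48871683, minus strand) and Ifi47 (chr11:49076587-49096974, plus strand) stand elsewhere on the same chromosome, and Iigp1 is on chromosome 18 (chr18:60376029-60392627, plus strand). Gbp7 (chr3:142530342-142550149), Gbp3 (chr3:142560026-142573209) and Gbp2 (chr3:142620602-142638008) follow each other on the plus strand of chromosome 3. Gbp4 (chr5:105115767-105139586) and Gbp9 (chr5:105077630-105139539) share 23773 bases of the minus strand of chromosome 5, and Gbp8 spans nearly all of both. How reads of overlapping genes were divided is not given in the sources used here, so the split between Igtp and Irgm2 and among Gbp4, Gbp8 and Gbp9 is uncertain. Olfr56, an olfactory receptor gene, spans all 20388 bases of Ifi47 on the same strand, and its larger mean was at most 0.0682 RPKM in the authors' deposited tables, but the division of reads between it and Ifi47 is not known either.

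Each of the authors' deposited tables gives, for 1 treatment against isotype, the larger of the 2 group means in RPKM (reads per kilobase of exon, scaled to library size), a log2 fold change and an adjusted p (the authors' Benjamini-Hochberg false discovery rate), and no value per library. A gene is called below where that adjusted p is under 0.05. The smaller mean was implied from the fold change where needed, and the standard error (SE) of a fold change was implied from its p-value. In the authors' deposited tables the median of all tested genes was -0.62 in the anti-CTLA-4 comparison, -0.45 in that of anti-PD-1 DANA and -0.42 in that of the combination (log2 fold change), so 0 is not where the typical gene lies. Set against the group means, which are scaled to library size, the deposited fold changes were lower by 0.94, 0.82 and 0.11 log2 units in the same order of comparisons (the ratio of means minus the fold change, median over 418, 229 and 177 genes whose 2 means are both known). All of these genes had a mean above isotype in that treatment and in neither of the others. The offset was also used to imply the means of genes that fell, on which it was not measured. Library sizes recovered from the lowest means ranged from 14729713 to 42556869 reads.

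The sorted cells carried the markers of CD8 T cells in every group. The deposited or implied mean of Cd8a was 138 RPKM in anti-CTLA-4, 147 RPKM in anti-PD-1 DANA, 81.0 RPKM in the combination and 81.8 RPKM in isotype, and none of 8 CD8 T cell markers was called in any comparison. RNA of the GTPases was present in these sorted pools too: isotype means ran from 2.51 RPKM for Iigp1 to 90.9 RPKM for Igtp. Bulk RNA of a pool does not show which of its cells held that RNA. Per length, Igtp was followed in isotype by Ifi47 at 54.0 RPKM, Irgm1 at 28.8 RPKM, Gbp2 at 22.03 RPKM, Gbp7 at 21.97 RPKM, Gbp4 at 21.2 RPKM, Irgm2 at 16.2 RPKM, Gbp9 at 7.26 RPKM and Gbp3 at 4.70 RPKM. The tables hold no spread for a group, so neighbours in this order cannot be said to differ.

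**Figure D2:**
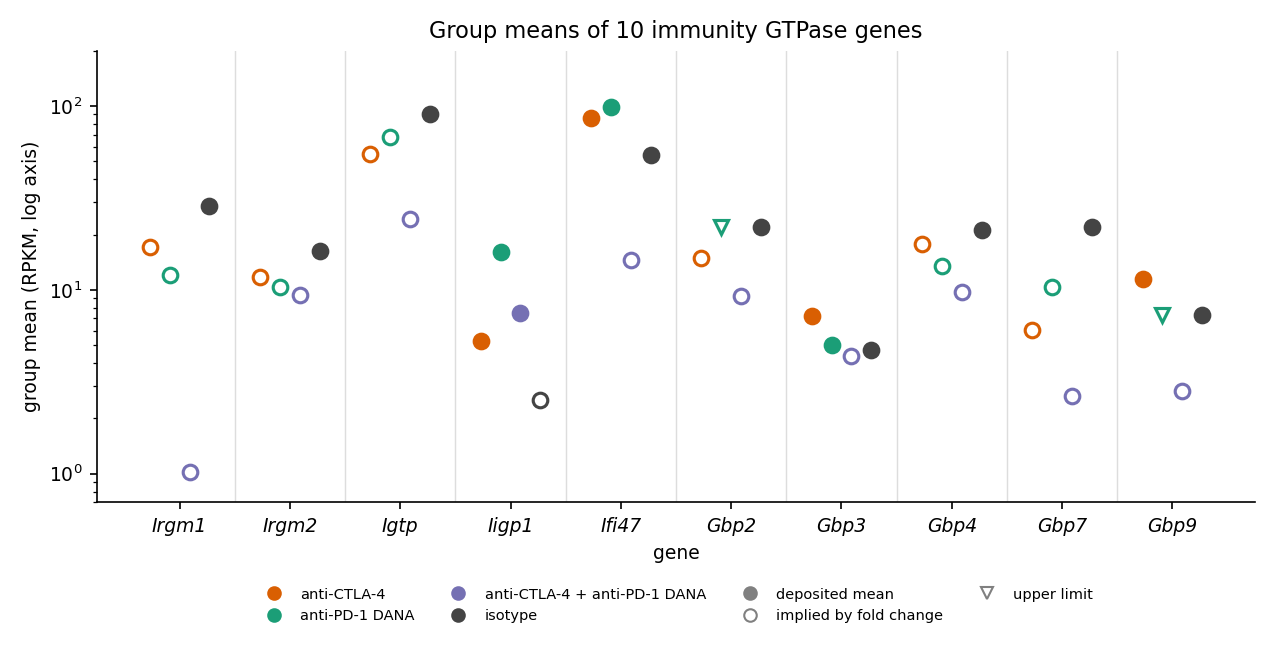
Group mean of each member in RPKM on a log axis, the groups anti-CTLA-4, then anti-PD-1 DANA, then the combination, then isotype running from left to right within each gene; filled points are means in the authors' deposited tables, open circles are implied by the fold change and triangles are upper limits. Irgm1 in the combination, at 1.02 RPKM, is the lowest point, and Iigp1 is the member whose isotype mean lies below its 3 treated means.

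Irgm1 was the member with a called change, and it fell in the combination. Of the 10 members 0 were called in anti-CTLA-4, 0 in anti-PD-1 DANA and 1 in the combination, where the authors' deposited tables called 4.23%, 3.75% and 7.53% of tested genes. Irgm1 encodes a regulatory IRG that guards the cell's own membranes. Its mean was 17.2 RPKM in anti-CTLA-4, 12.03 RPKM in anti-PD-1 DANA and 1.02 RPKM in the combination, all 3 implied, against 28.8 RPKM in isotype, a mean all 3 of the authors' deposited tables hold. The combination thus had the lowest of the 4 means, which carry no spread of their own. The authors' deposited table for the combination gave Irgm1 a log2 fold change of -4.93 (implied SE 0.94), with an adjusted p (Benjamini-Hochberg) of 0.00024 and a Bonferroni p of 0.0084. In the authors' deposited tables for the single antibodies it was -1.69 with anti-CTLA-4 (adjusted p = 0.761) and -2.07 with anti-PD-1 DANA (adjusted p = 0.408), each with an implied SE of 0.94. A log2 change of 3.16 and 3.20 would have been needed for a call in those 2 comparisons.

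The difference between the combination and each single antibody was computed from the deposited fold changes, since the isotype group cancels. For Irgm1 the combination minus anti-CTLA-4 was -3.24 log2 units (SE at most 1.33), with an adjusted p of 0.523 from a two-sided normal test with Benjamini-Hochberg adjustment over all tested genes. Against anti-PD-1 DANA it was -2.85 log2 units (SE at most 1.33, adjusted p = 0.706 by the same test). With the variances of the group means taken as equal, the SE became 0.94 and the adjusted p of this normal test 0.0202 against anti-CTLA-4 and 0.0527 against anti-PD-1 DANA. The difference between combined and single treatment is therefore called in 1 of these 4 tests. The upper bound overstates the error, because both fold changes share the isotype group. A missing call with that bound thus does not show that there was no difference. With library size scaling and the upper bound of the error, Irgm1 was at -4.07 against anti-CTLA-4 and -3.56 against anti-PD-1 DANA. Neither was called (adjusted p = 0.318 and 0.463, the same normal test). Library size scaling was not run with equal variances. No member was called in either contrast with the upper bound of the error, where 0.0561% and 0.0393% of tested genes were called against anti-CTLA-4 and anti-PD-1 DANA; at an unadjusted p under 0.05 by the same normal test there was 1 member (Irgm1) in the first, where 7.81% of tested genes passed, and there were 2 (Irgm1 and Ifi47) in the second, where 6.48% did. With equal variances, where 6.11% and 4.4% of tested genes were called, 1 member was called in the first contrast and 0 in the second. With library size scaling Ifi47 also had an unadjusted p of 0.0145 against anti-CTLA-4 by the normal test. The share of all tested genes under that scaling was not computed.

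Igtp and Irgm2, the other IRGM-type regulators, were not called. Igtp had implied means of 54.9 RPKM in anti-CTLA-4, 67.9 RPKM in anti-PD-1 DANA and 24.3 RPKM in the combination, against 90.9 RPKM in isotype. Its log2 fold changes in the authors' deposited tables were -1.67, -1.24 and -2.01 in the same order (implied SE 0.82), and its lowest adjusted p (Benjamini-Hochberg) was 0.243, in the combination. Irgm2 had implied means of 11.8 RPKM in anti-CTLA-4, 10.4 RPKM in anti-PD-1 DANA and 9.40 RPKM in the combination, against 16.2 RPKM in isotype. All 3 treated means of both genes lay below isotype, by sizes the authors' test did not call. Because the 2 genes overlap, their separate values are uncertain.

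Ifi47 and Iigp1, IRGs of the effector type that load onto vacuoles, followed other orders. Ifi47 (also called Irgd) had means of 86.2 RPKM in anti-CTLA-4 and 99.4 RPKM in anti-PD-1 DANA in the authors' deposited tables and an implied 14.5 RPKM in the combination, against 54.0 RPKM in isotype. The 2 single-antibody means were thus above isotype and the combination below it. The log2 fold changes of Ifi47 in the authors' deposited tables were -0.22, 0.10 and -2.004 in that order (implied SE 0.76), with an adjusted p (Benjamini-Hochberg) of 0.164 in the combination. The value of -0.22 beside a mean above that of isotype shows the offset in the scaling, since scaled to library size the anti-CTLA-4 value was 0.72. The combination minus anti-PD-1 DANA was -2.11 log2 units for Ifi47 (SE at most 1.07, adjusted p = 0.766 by the two-sided normal test), and no call was made.

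Iigp1 (also called Irga6) was the member that was highest relative to isotype. Its means were 5.26 RPKM in anti-CTLA-4, 16.02 RPKM in anti-PD-1 DANA and 7.51 RPKM in the combination in the authors' deposited tables, against an implied 2.51 RPKM in isotype. The log2 fold changes in the authors' deposited tables were 0.15, 1.86 and 1.47 in that order with an implied SE of 1.49, and none was called. A log2 change of at least 4.78 would have been needed.

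Among the GBPs, Gbp7 was lowest relative to isotype and none was called. Gbp7 had implied means of 6.03 RPKM in anti-CTLA-4, 10.3 RPKM in anti-PD-1 DANA and 2.63 RPKM in the combination, against 21.97 RPKM in isotype. Its log2 fold changes in the authors' deposited tables were -2.81, -1.90 and -3.17 in that order (implied SE 1.12), with adjusted p-values (Benjamini-Hochberg) of 0.242, 0.858 and 0.113. The combination passed the threshold when p-values were adjusted over the 17833 tested genes in place of the 48709 listed ones (adjusted p = 0.0413, Benjamini-Hochberg). It did not pass with library size scaling (adjusted p = 0.137) or centred on the median tested gene (0.241), both by the normal test with Benjamini-Hochberg adjustment. Gbp2, a GBP that coats microbes and their vacuoles, had implied means of 15.0 RPKM in anti-CTLA-4 and 9.22 RPKM in the combination and at most 22.03 RPKM in anti-PD-1 DANA, against 22.03 RPKM in isotype. Gbp4 had implied means of 17.9 RPKM in anti-CTLA-4, 13.4 RPKM in anti-PD-1 DANA and 9.76 RPKM in the combination, against 21.2 RPKM in isotype. Both genes had their lowest mean in the combination.

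Gbp9 and Gbp3 were the low GBPs. Gbp9 had 11.4 RPKM in anti-CTLA-4 in the authors' deposited table, at most 7.26 RPKM in anti-PD-1 DANA and an implied 2.80 RPKM in the combination, against 7.26 RPKM in isotype. Gbp3 had 7.20 RPKM in anti-CTLA-4 and 5.02 RPKM in anti-PD-1 DANA in the authors' deposited tables and an implied 4.37 RPKM in the combination, against 4.70 RPKM in isotype. The log2 fold changes of Gbp3 in the authors' deposited tables, -0.35, -0.78 and -0.21 in that order, were all smaller than the implied SE of 1.71. For Gbp3 alone among the members could reads per library be solved from a group mean, and they were uneven. In anti-CTLA-4 its 3 libraries, from the shallowest to the deepest, held 309, 12 and 1448 reads, or 6.43, 0.192 and 15.0 RPKM. In anti-PD-1 DANA they held 19, 604 and 825 reads, or 0.24, 6.91 and 7.91 RPKM. The isotype mean had 2 solutions, with 4.04, 9.05 and 1.02 RPKM or 4.61, 0.662 and 8.82 RPKM. In each solved group 1 library of the same pool stood far below the others.

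**Figure D3:**
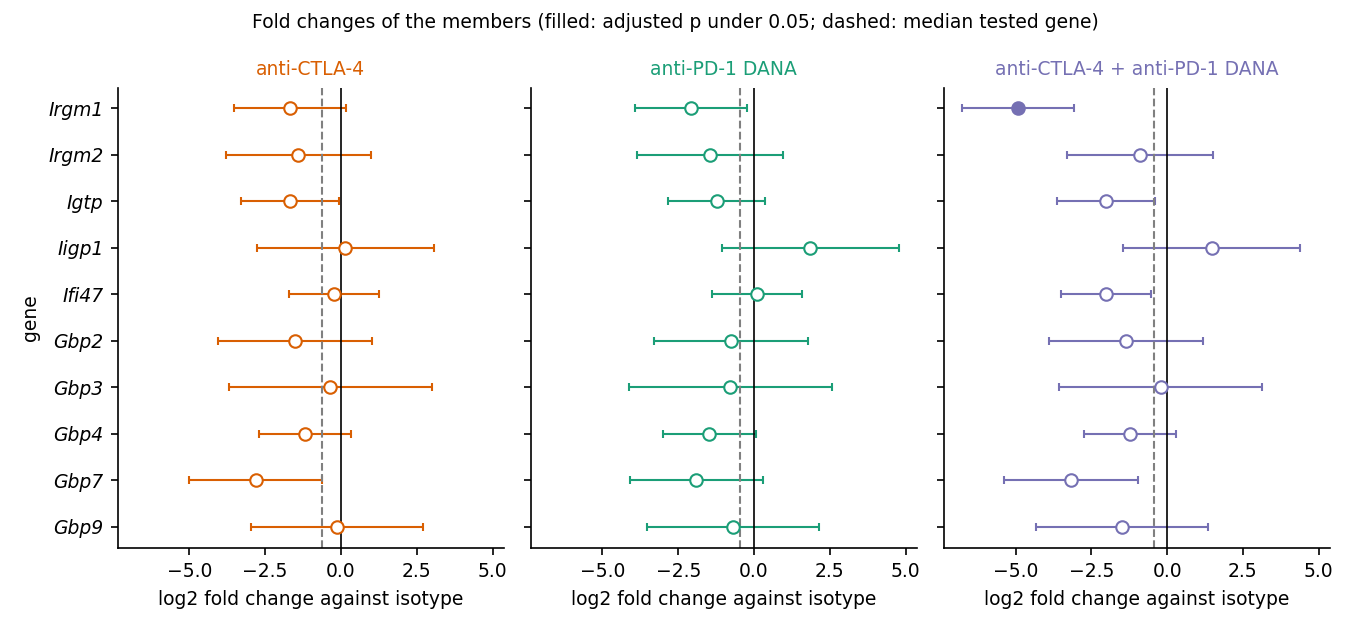
Log2 fold change of each member against isotype in the authors' deposited tables, in panels for each treatment (anti-CTLA-4 left, combination right), with bars for the 95% interval from the implied SE, a solid line at 0 and a dashed line at the median of all tested genes (-0.62, -0.45 and -0.42). Irgm1 in the combination is the filled (called) point.

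At an unadjusted p under 0.05 in the authors' deposited tables there were 2 members in anti-CTLA-4 (Igtp and Gbp7) and 1 in anti-PD-1 DANA (Irgm1), where 22.9% and 23.1% of tested genes passed. In the combination there were 4 (Irgm1, Igtp, Ifi47 and Gbp7), where 23.2% of all tested genes and 31.5% of those of 4 to 100 RPKM passed. The 1 called member was lower, as were 3.59% of tested genes in the authors' deposited table. Among tested genes with a larger mean of 4 to 100 RPKM, the range of the members, the called share in the combination was 15.1%, so 1 in 10 is not more than genes of this level showed. The members' median log2 fold change in the authors' deposited tables was -1.30 in anti-CTLA-4, -1.01 in anti-PD-1 DANA and -1.42 in the combination, against -0.75, -0.80 and -0.72 over tested genes of that level. Below 0 lay 9, 8 and 9 of the 10 members in that order; scaled to library size it was 6, 5 and 9. Summed over the 10 genes, the level was 233 RPKM in anti-CTLA-4, 264 RPKM in anti-PD-1 DANA and 85.5 RPKM in the combination, against 269 RPKM in isotype, with the upper limits of Gbp2 and Gbp9 in anti-PD-1 DANA counted in. Igtp (implied 24.3 RPKM in the combination, 90.9 RPKM in isotype) and Ifi47 (implied 14.5 and 54.0 RPKM) weighed most in these sums, and neither was called. Iigp1 went the other way in the combination (7.51 RPKM, against an implied 2.51 RPKM in isotype).

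**Figure D4:**
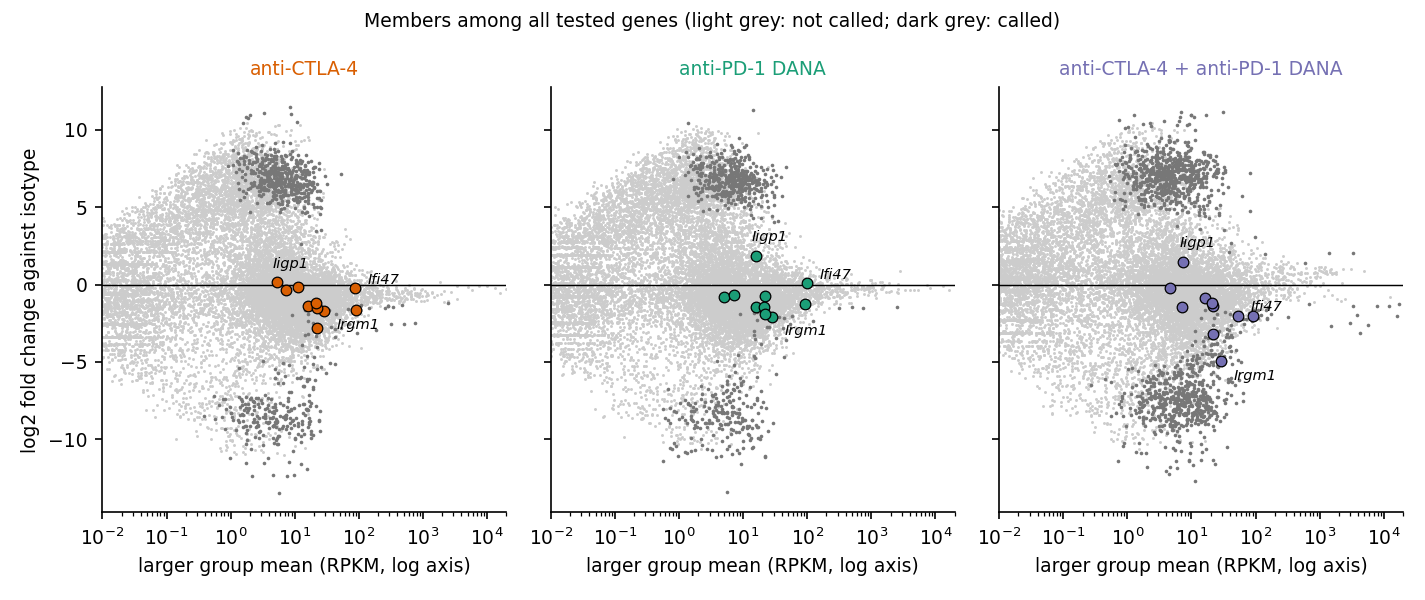
Log2 fold change against isotype plotted on the larger group mean (RPKM, log axis) for all tested genes in the authors' deposited tables, with members as coloured points, called genes in dark grey and others in light grey. In the combination Irgm1 lies at -4.93, among the called genes, while Ifi47 and Iigp1 lie within the band of genes that were not called.

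Of 19 other genes of the IRG, GBP and very large GTPase families, 18 were tested, and 0, 0 and 1 were called in the 3 comparisons (anti-CTLA-4, then anti-PD-1 DANA, then the combination). At an unadjusted p under 0.05 in the authors' deposited tables there were 4, 3 and 6. Among all tested genes 4.23%, 3.75% and 7.53% were called, and 22.9%, 23.1% and 23.2% had an unadjusted p under 0.05. Their median log2 fold changes in the authors' deposited tables, -0.57, 0.21 and -0.42 in that order, stood near or above the medians of all tested genes. The called gene was Irgq, an outlying IRG-like gene, which rose in the combination to 4.04 RPKM, against an implied 0.0447 RPKM in isotype (authors' deposited table, log2 fold change 6.39, adjusted p = 0.019, Benjamini-Hochberg). Tgtp1 and Tgtp2, effector IRGs, are near-identical copies, so the division of reads between them is uncertain. Tgtp1 had 46.6 RPKM in anti-CTLA-4, 62.0 RPKM in anti-PD-1 DANA and 20.3 RPKM in the combination in the authors' deposited tables, against an implied 12.3 RPKM in isotype. Tgtp2 had an implied 62.8 RPKM in anti-CTLA-4, 86.9 RPKM in anti-PD-1 DANA in the authors' deposited table and an implied 27.1 RPKM in the combination, against 79.5 RPKM in isotype. For both copies anti-PD-1 DANA was the highest group and neither was called. Gbp8, which spans Gbp4 and Gbp9, had implied means of 15.4 RPKM in anti-CTLA-4, 26.1 RPKM in anti-PD-1 DANA and 8.40 RPKM in the combination, against 39.1 RPKM in isotype, and Gbp6 ran the other way, with 10.7, 17.8 and 7.90 RPKM in the same order of groups in the authors' deposited tables, against an implied 3.36 RPKM in isotype.

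Reads per library could be solved for 21 group means of 9 of these other family genes, and in 9 of the 21 means 80% or more of the value came from 1 library. The share of the highest library ran from 39.2% to 100% of the group's total, with a median of 75.5%. Only means worth few reads could be solved, so these shares describe such means and not the families as a whole. Tgtp1, Tgtp2, Gbp8 and every member but Gbp3 had too many reads in the means tried. Irgq had too many in the combination, where it was called, so the spread behind that rise is not known. Its libraries were uneven in anti-CTLA-4, with 1.40, 4.34 and 0.0111 RPKM, and in anti-PD-1 DANA, with 0.0204, 0.117 and 0.757 RPKM. Gm12185, an IRG-like gene, was even in anti-CTLA-4, where its 3 libraries held 3.27, 5.49 and 5.66 RPKM, and uneven in isotype, where they held 2.92, 0.0219 and 0.0926 RPKM. Gbp5, a GBP that promotes inflammasome assembly, had 0.777, 0.0868 and 0.0153 RPKM in anti-CTLA-4, 0.00622, 0.00563 and 0.467 RPKM in anti-PD-1 DANA, and 0.0123, 1.22 and 0.581 RPKM in the combination. Gbp10 had 0.0351, 1.62 and 0.157 RPKM in anti-CTLA-4, 1.15, 7.74 and 6.81 RPKM in anti-PD-1 DANA, and 0.241, 1.87 and 2.26 RPKM in the combination. For Gbp5, the libraries of each treated group thus spanned a wider range than the 3 treated group means of 0.293, 0.160 and 0.603 RPKM.

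**Figure D5:**
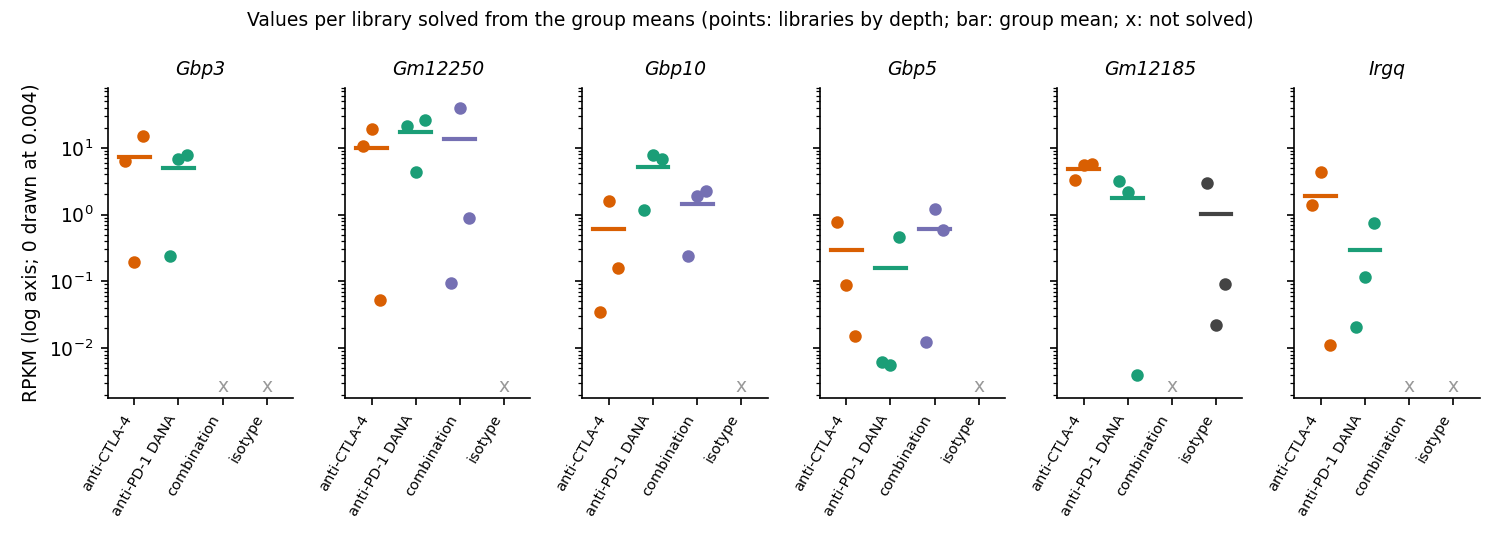
RPKM on a log axis in each library (points, from the shallowest to the deepest library of a group) for Gbp3 and 5 other family genes, with bars at the group mean and x where no single solution was found. In Gm12250 the combination's mean of 13.4 RPKM rests on 1 library at 39.2 RPKM, with the others at 0.0957 and 0.885 RPKM.

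Upstream of the GTPases, 15 genes of interferon-gamma signalling were all tested, and 0, 0 and 2 were called in the 3 comparisons (anti-CTLA-4, then anti-PD-1 DANA, then the combination), both of them lower. At an unadjusted p under 0.05 in the authors' deposited tables there were 5, 3 and 7. Among all tested genes 4.23%, 3.75% and 7.53% were called, and 22.9%, 23.1% and 23.2% had an unadjusted p under 0.05. Irf1, the transcription factor that binds the ISRE, fell in the combination to an implied 16.6 RPKM, against 71.8 RPKM in isotype (authors' deposited table, log2 fold change -2.22, implied SE 0.55, adjusted p = 0.0066, Benjamini-Hochberg), a call that ended when fold changes were centred on tested genes of 4 to 100 RPKM (adjusted p = 0.131), a setting chosen after seeing the data. In the single antibodies its log2 fold changes in the authors' deposited tables were -1.30 (anti-CTLA-4) and -1.51 (anti-PD-1 DANA), neither called. Ptpn6, a phosphatase that dampens cytokine signalling, fell in the combination (authors' deposited table, -1.65, adjusted p = 0.0211, Benjamini-Hochberg), a call that ended once fold changes were centred on the median tested gene (adjusted p = 0.158).

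The cytokine itself and its receptor were not called. Ifng had implied means of 7.26 RPKM in anti-CTLA-4, 4.24 RPKM in anti-PD-1 DANA and 11.4 RPKM in the combination, against 14.2 RPKM in isotype. Ifngr1, the ligand-binding chain, had 50.7 RPKM in anti-CTLA-4, 26.4 RPKM in anti-PD-1 DANA and 28.0 RPKM in the combination in the authors' deposited tables, against an implied 7.79 RPKM in isotype. Ifngr2, the signalling chain whose level limits the interferon-gamma response of T cells, had implied means of 1.30 RPKM in anti-CTLA-4, 1.64 RPKM in anti-PD-1 DANA and 0.568 RPKM in the combination, against 4.95 RPKM in isotype. The 2 receptor chains lay on opposite sides of isotype in all 3 treated groups.

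Of 20 other interferon-gamma targets 17 were tested, and 0, 0 and 3 were called in the 3 comparisons (anti-CTLA-4, then anti-PD-1 DANA, then the combination). At an unadjusted p under 0.05 in the authors' deposited tables there were 7, 4 and 8. The shares of all tested genes were 4.23%, 3.75% and 7.53% called, and 22.9%, 23.1% and 23.2% at that unadjusted p. Tap1, which carries peptides to MHC class I, fell in the combination to an implied 12.1 RPKM, against 53.9 RPKM in isotype (authors' deposited table, log2 fold change -2.26, adjusted p = 0.0028, Benjamini-Hochberg). H2-D1, a class I heavy chain, fell in the combination to an implied 310 RPKM, against 685 RPKM in isotype (authors' deposited table, -1.25, adjusted p = 0.0148, Benjamini-Hochberg), and was not called once centred on the median tested gene (adjusted p = 0.239). Psmb9, an immunoproteasome subunit encoded beside Tap1, rose in the combination to 42.1 RPKM in the authors' deposited table, against an implied 6.24 RPKM in isotype (log2 fold change 2.65, adjusted p = 0.0404, Benjamini-Hochberg). Centred on tested genes of 4 to 100 RPKM, Tap1 was not called (adjusted p = 0.0769, Benjamini-Hochberg). Called targets thus went in both directions.

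Of 20 genes of the type I interferon response, which share the ISRE with the GTPases, 2, 0 and 4 were called in the 3 comparisons (anti-CTLA-4, then anti-PD-1 DANA, then the combination), all lower. Of all tested genes 4.23%, 3.75% and 7.53% were called. At an unadjusted p under 0.05 in the authors' deposited tables there were 6, 3 and 7 (all tested genes: 22.9%, 23.1% and 23.2%). In the combination 6 of the 20 lay above 0, and their median was -0.91, against -0.72 over tested genes of 4 to 100 RPKM. Ifit3, an antiviral RNA-response gene, fell in anti-CTLA-4 (authors' deposited table, log2 fold change -6.13, adjusted p = 0.0479, Benjamini-Hochberg) and in the combination (-7.41, adjusted p = 0.0063), and the anti-CTLA-4 call ended with library size scaling (adjusted p = 0.101). Oasl1, an oligoadenylate synthetase-like gene, fell in anti-CTLA-4 (authors' deposited table, -9.80, adjusted p = 0.0077, Benjamini-Hochberg) and in the combination (-7.03, adjusted p = 0.0414). Isg15, a ubiquitin-like modifier, fell in the combination (authors' deposited table, -5.93, adjusted p = 0.0361, Benjamini-Hochberg), as did Ifih1, a sensor of viral RNA (-7.17, adjusted p = 0.0253). Centred on the median tested gene, Ifit3 in anti-CTLA-4 (adjusted p = 0.0787), Isg15 (0.0600) and Oasl1 in the combination (0.0618) were not called, nor was Ifih1 when centred on tested genes of 4 to 100 RPKM (0.0527). In isotype, Oasl1 rested on 1 library, with 16.4, 0.0469 and 0.0117 RPKM, Ifit3 had 0.0717, 38.4 and 7.65 RPKM, and Isg15 had 37.2, 30.1 and 7.32 RPKM. The isotype mean of Ifih1 had 2 solutions, with 0.0562, 4.15 and 0.0112 RPKM or 0.286, 0.799 and 3.13 RPKM.

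Of 20 genes listed as partners of the GTPases at vacuoles (the autophagy conjugation machinery, inflammasome genes and others, with Pigk, which has no established role there, among them), 19 were tested, and 2, 2 and 3 were called in the 3 comparisons (anti-CTLA-4, then anti-PD-1 DANA, then the combination), all higher. Called shares of all tested genes were 4.23%, 3.75% and 7.53%. At an unadjusted p under 0.05 in the authors' deposited tables there were 5, 5 and 6 (all tested genes: 22.9%, 23.1% and 23.2%). In the combination 9 of the tested partners lay below 0 and 10 above. Atg3, the enzyme that joins LC3 and GABARAP to lipid and is needed to place IRGs and GBPs on vacuoles, rose in all 3: it had 18.1 RPKM in anti-CTLA-4, 23.9 RPKM in anti-PD-1 DANA and 7.53 RPKM in the combination in the authors' deposited tables, against an implied 0.149 RPKM in isotype. Its log2 fold changes in the authors' deposited tables were 5.97, 6.51 and 5.56 in that order, with adjusted p-values (Benjamini-Hochberg) of 0.0014, 0.0004 and 0.0011, and the 3 comparisons share the same isotype libraries. Atg7, which activates LC3 for ATG3, rose in anti-PD-1 DANA (authors' deposited table, 6.05, adjusted p = 0.0366, Benjamini-Hochberg). Gabarapl1, an LC3 relative, rose in anti-CTLA-4 (authors' deposited table, 8.28, adjusted p = 0.0434, Benjamini-Hochberg). Casp1, the inflammasome protease, rose in the combination (authors' deposited table, 8.52, adjusted p = 0.0056, Benjamini-Hochberg), as did Pigk, a subunit of the enzyme that attaches GPI anchors (5.40, adjusted p = 0.0319), so that 2 were called there without it. All 5 had means under 25 RPKM in the groups where they rose and under 1 RPKM in isotype, a mean deposited for Gabarapl1 and implied for the others.

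Some markers of other cell types, in which these GTPases are also expressed, were called in the same comparison as Irgm1. Lyz2, a lysozyme of macrophages and neutrophils, fell in the combination to an implied 2.76 RPKM, against 49.1 RPKM in isotype (authors' deposited table, log2 fold change -4.26, adjusted p = 0.0169, Benjamini-Hochberg), and Fcgr3, an Fc receptor, also fell (-7.63, adjusted p = 0.0321); centred on tested genes of 4 to 100 RPKM their adjusted p-values were 0.0664 and 0.0605. Of 12 macrophage and monocyte markers 11 were listed (Itgam was not analysed here) and Adgre1 and Fcgr1 were at 0 throughout; 3, 2 and 2 were called in the 3 comparisons (anti-CTLA-4, then anti-PD-1 DANA, then the combination), 1 of them higher, in anti-PD-1 DANA. In the combination 6 of the 9 tested lay below 0 and 3 above, with a median log2 fold change of -0.45, against -0.42 over all tested genes. The 3 above, none called, were Csf1r (0.111 RPKM in the combination against 0.00569 RPKM in isotype), C1qb (0.0144 against an implied 0.00389 RPKM) and C1qc (0.0338 against an implied 0.00232 RPKM). Their summed level was 286 RPKM in anti-CTLA-4, 306 RPKM in anti-PD-1 DANA and 170 RPKM in the combination, against 274 RPKM in isotype, most of it Ly6c2, which CD8 T cells also express. Dendritic cell markers, none of 8 called and Clec9a at 0 throughout, summed to 136, 165 and 61.4 RPKM in the same order, against 146 RPKM in isotype, most of it Ccr7, which T cells express too. The 12 B cell markers, 3, 0 and 2 of them called, summed to 1033, 326 and 329 RPKM, against 410 RPKM in isotype; in the combination Cd22 fell (authors' deposited table, -6.38, adjusted p = 0.0123, Benjamini-Hochberg) and Fcer2a rose (5.44, adjusted p = 0.0467). In the same order of groups, NK cell markers summed to 2.24, 9.57 and 10.5 RPKM, against 7.49 RPKM in isotype. Of the NK markers 0, 1 and 1 of 6 were called, each of them lower although these sums were above isotype, with Ncr1 and Klra8 at 0. CD4 T cell markers summed to 7.51, 3.34 and 0.291 RPKM against 3.66 RPKM (1, 0 and 0 of 4 called, the 1 higher). Markers of stroma and endothelium summed to 6.997, 9.92 and 10.4 RPKM against 21.1 RPKM (none of 6 called, Cdh5 and Pdpn at 0). Beside these marker counts, 4.23%, 3.75% and 7.53% of all tested genes were called in the 3 comparisons. The part of other cells in the result for Irgm1 was not tested.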

How the data were processed

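RNA was measured in 12 Smart-seq2-type libraries (0.25 ng RNA, 21 preamplification cycles). CLC Genomics Workbench did the alignment and counting, per the labels' protocols, with build GRCm38.p5, per the submitters' processing notes. No source used here gives its version, annotation or statistical model. For each treatment against isotype the authors deposited the larger group mean in RPKM (a unit read from the values), log2 and signed linear fold changes (the second, a signed score, was not used), and p-values (raw, Benjamini-Hochberg and Bonferroni). The tables hold no value per library, so the planned edgeR count model could not be fitted and the authors' test is used, with an adjusted p under 0.05 as a call.

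From these files, implied SEs (the size of a fold change divided by the normal quantile of its p), implied means, contrasts between treatments and their two-sided normal tests were computed with Python 3.11.15, numpy 2.4.6, pandas 2.3.3 and scipy 1.17.1, and tested on simulated data. The deposited fold changes were compared with library size through genes at 5 RPKM or more in isotype and above isotype in that treatment alone. Of these genes 95% lay within 1.12-fold of the median offset, and genes that fell were not among them. Library sizes were read from group means worth 1 read. Reads per library were solved with GENCODE M21 exon lengths where chance allowed at most 0.05 solutions. In a check on means worth fewer than 300 reads, 88.5 to 91.8% had a solution, against 0% with lengths 1 base off. The check did not cover means of more reads, among them those of Gbp3 and Gm12250. Gbp3 in isotype had 2 solutions where chance allowed 0.022. Solved libraries cannot be tied to replicate numbers. The named genes are all members, every called gene of the other family, interferon and vacuole lists, and Irf1, Ifng, Ifngr1 and Ifngr2. Tgtp1, Tgtp2, Gbp5, Gbp6, Gbp8, Gbp10, Gm12185, Gm12250, Olfr56 and single marker genes are named besides, chosen after their values were seen. One gene of interferon-gamma signalling is not reported here. The members, lists and marker genes were chosen with earlier results of these data known.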

Additional observations from a re-analysis of the deposited data

Results flagged for a closer look

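Gm12250, an IRG family gene on chromosome 11 (chr11:58187739-58189012, plus strand), is listed in the authors' deposited tables with no fold change and no p-value, although it has a signal in every table, which is what set it apart. The larger group mean in the authors' deposited tables was 9.92 RPKM for anti-CTLA-4, 17.1 RPKM for anti-PD-1 DANA and 13.4 RPKM for the combination. The 3 values differ from each other and were each solved as whole reads of the treated group, with 197, 467 and 2 reads in the libraries of anti-CTLA-4, 652, 149 and 1051 in those of anti-PD-1 DANA, and 3, 1596 and 48 in those of the combination. The isotype mean was therefore below 9.92 RPKM and is not known further. The treated libraries spread from 0.0531 to 39.2 RPKM, and no difference from isotype was tested.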

How the results depend on the processing

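The fall of Irgm1 in the combination was called under every alternative run (log2 fold change -4.93 to -4.21, adjusted p 4.28e-05 to 0.00841). Each alternative reused the deposited fold change and the implied SE. It changed only the adjustment, the genes counted or a constant offset. None could test the spread among libraries or the authors' model. In both single-antibody comparisons 0 members were called under every alternative run. No paired analysis was possible because the tables hold no value per library; for the same reason leaving out each replicate and fits with a replicate block were not run. The count of called members in the combination was 1 as reported, 2 with adjustment over the tested genes (Gbp7 joined) and 3 among genes with a larger mean of 1 RPKM or more (Gbp7, adjusted p = 0.0224, and Ifi47, adjusted p = 0.034, joined). With Bonferroni adjustment, library size scaling and either centring it stayed at 1. The count for the combination against anti-CTLA-4 was 0 with the upper bound of the error and 1 with equal variances (Irgm1).

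Directions of uncalled members turned with the scaling. With library size scaling, the log2 values against isotype were 0.72 for Ifi47, 0.59 for Gbp3 and 0.81 for Gbp9 in anti-CTLA-4, and 0.0621 for Gbp2, 0.0322 for Gbp3 and 0.13 for Gbp9 in anti-PD-1 DANA, although the authors' deposited tables hold no anti-PD-1 DANA mean above isotype for Gbp2 and Gbp9. Centred on the median tested gene they were 0.39, 0.27 and 0.49 for Ifi47, Gbp3 and Gbp9 in anti-CTLA-4, and 0.21 for Gbp3 in the combination. Centred on tested genes of 4 to 100 RPKM, an alternative chosen after seeing the data, they were 0.53, 0.40 and 0.62 for the same genes in anti-CTLA-4, 0.0421, 0.0122 and 0.11 for Gbp2, Gbp3 and Gbp9 in anti-PD-1 DANA, and 0.51 for Gbp3 in the combination. With library size scaling, the combination minus anti-CTLA-4 was -0.33 for Irgm2, -0.70 for Gbp2 and -0.70 for Gbp3, and the combination minus anti-PD-1 DANA was -0.15 for Irgm2, -0.14 for Gbp3 and -0.46 for Gbp4, where the reported values were positive. The offset of the deposited fold changes is shown by the known group means. The spread implied by the p-values limits Gbp3, Gbp9 and Iigp1 most, for which changes under 4.64 log2 units could not have been called in the combination.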
